A study of Mus musculus with 12 samples.

Results

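The stathmins are a family of 4 small phosphoproteins, encoded in the mouse by Stmn1, Stmn2, Stmn3 and Stmn4, that bind soluble tubulin and favour the shrinkage of microtubules. The members were chosen by gene name. All 4 were found among the 39174 genes of each table, and each was listed above 0 in all 12 libraries. Total RNA had been sequenced from the axonal compartment (6 libraries) and from the somatodendritic compartment (6 libraries) of primary mouse motoneuron cultures of the CD-1 background. The neurons had been grown in microfluidic chambers, in which axons reach a compartment apart from the cell bodies and dendrites, and Smn, the gene deficient in spinal muscular atrophy, had been knocked down in every culture. Unperturbed neurons were not analysed here, so the values describe stathmin messages in each compartment of Smn-depleted cultures and not what the depletion changed. The values are FPKM, read fragments divided by transcript length and by the library total, so that genes of different length can be compared. The labels do not say whether replicates were separate cultures, so the spread that p-values measure here may be a technical one.

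A stathmin holds tubulin dimers in a complex that cannot polymerise and promotes catastrophe, the switch of a microtubule from growth to shrinkage. Phosphorylation by kinases of the JNK, cyclin-dependent and cAMP-dependent families releases the tubulin. Stmn1 (stathmin, or oncoprotein 18) is cytosolic and is also abundant in dividing cells, whereas Stmn2 (SCG10), Stmn3 (SCLIP) and Stmn4 (RB3) are neuronal proteins anchored to the Golgi and to transport vesicles. Stmn2 is concentrated in growth cones, is rapidly lost from injured axons, and in human motor neurons is lost when the RNA-binding protein TDP-43 fails. Raised stathmin protein has been described in mouse models of spinal muscular atrophy.

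The anchored members differ from Stmn1 at the start of the coding sequence, which is shown because it separates the family into its cytosolic and its membrane-bound branch. The first 90 coding bases of the GENCODE M21 transcripts Stmn1-201, Stmn2-201, Stmn3-201 and Stmn4-201 on GRCm38 are given 5′ to 3′, with cysteine codons in capitals. In rat SCG10 and its relatives, a pair of neighbouring cysteines near the amino terminus carries the palmitate that holds the protein on membranes.
Stmn1: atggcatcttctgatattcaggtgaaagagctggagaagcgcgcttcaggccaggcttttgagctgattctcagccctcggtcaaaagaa
Stmn2: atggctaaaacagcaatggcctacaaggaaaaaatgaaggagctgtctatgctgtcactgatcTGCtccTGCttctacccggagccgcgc
Stmn3: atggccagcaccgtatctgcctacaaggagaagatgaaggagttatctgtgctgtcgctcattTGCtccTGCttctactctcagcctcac
Stmn4: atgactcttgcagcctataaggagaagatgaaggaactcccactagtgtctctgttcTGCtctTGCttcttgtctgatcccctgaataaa
These bases lie, introns included, at chr4:134470163-134470743 on the plus strand for Stmn1, chr3:8509612-8541911 on the plus strand for Stmn2, chr2:181309172-181314212 on the minus strand for Stmn3 and chr14:66354433-66355662 on the plus strand for Stmn4. The coding sequence of Stmn1 held 149 codons and no cysteine codon. That of Stmn2 held 179 codons with cysteine at codons 22 and 24, and that of Stmn3 held 180 codons with cysteine at the same positions, 22 and 24. That of Stmn4 held 189 codons with cysteine at 20, 22, 45 and 58.

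Between members, 69.4 to 73.7% of aligned coding bases were identical. The longest identical stretch of any pair ran over 43 bases of Stmn1 and Stmn2, in capitals with 9 bases either side.
Stmn1: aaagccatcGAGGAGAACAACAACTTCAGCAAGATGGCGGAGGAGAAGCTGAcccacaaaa
Stmn2: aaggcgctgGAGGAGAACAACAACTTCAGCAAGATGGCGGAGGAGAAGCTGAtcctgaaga
The stretch lies at chr4:134472879-134472921 in Stmn1 and at chr3:8554867-8554909 in Stmn2. A read that falls wholly inside it cannot be given to either gene, and neither the labels nor the headers give the read length. The other pairs shared at most 16 to 21 bases.

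In the deposited tables Stmn1 (ENSMUSG00000028832) lies on chromosome 4 from 134468320 to 134473843, and Stmn2 (ENSMUSG00000027500) on chromosome 3 from 8509527 to 8561604. Stmn3 (ENSMUSG00000027581) lies on chromosome 2 from 181306459 to 181314500, and Stmn4 (ENSMUSG00000022044) on chromosome 14 from 66344296 to 66361680. Stmnd1, a gene with a stathmin domain on chromosome 13 that is no member of the group described, was listed at 0 in all 12 libraries.

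The libraries were shallow. In genes with 1 transcript, FPKM moved in steps of 1 read, which implied 218000 to 727000 reads per axonal library and 55000 to 363000 per somatodendritic library, the lowest being somatodendritic replicate 4. Mitochondrially encoded genes held 9.71 to 53.5% of FPKM in the axonal set, against 10.4 to 12.0% in the somatodendritic set. Since FPKM is relative to the library total, values were scaled by median-of-ratios factors before comparison. Replicates 1 and 2 of both compartments held less short non-coding RNA (5.61 to 8.68% of FPKM) than replicates 3 to 6 (12.9 to 22.0%), and values are also given within these sets. Smn1, the knockdown target, was listed at 0 to 56.2 scaled FPKM in the axonal set, against 0 to 15.6 in the somatodendritic set, and the knockdown could not be checked without unperturbed libraries. All 8 pan-neuronal markers were above 0 in every library. Of 7 motoneuron markers, Chat and Mnx1 were at 0 in all libraries and Isl1, Isl2, Lhx3, Slc5a7 and Prph were at 0 in 3 to 6 libraries of each compartment, with no value above 5.75. The motoneuron label therefore rests on the culture and not on these markers.

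Stathmin messages were among the more abundant protein-coding messages of both compartments, and Stmn2 led the family in every library. Stmn2 ranked between 31 and 144 among protein-coding genes that are not mitochondrially encoded in the axonal set, against 35 to 45 in the somatodendritic set. Stmn1 ranked from 101 to 202 in the axonal set, against 79 to 223 in the somatodendritic set. Stmn4 ranked from 89 to 921 in the axonal set, against 152 to 467 in the somatodendritic set. Stmn3 ranked from 347 to 869 in the axonal set, against 198 to 382 in the somatodendritic set. In such bulk samples, less RNA from a cell type or its axons and less of a message within that RNA cannot be told apart. The summed level of the 4 members averaged 608.0 ± 123.7 scaled FPKM in axonal libraries and 712.9 ± 58.0 in somatodendritic ones (SD, 6 libraries a side).

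**Figure D1:**
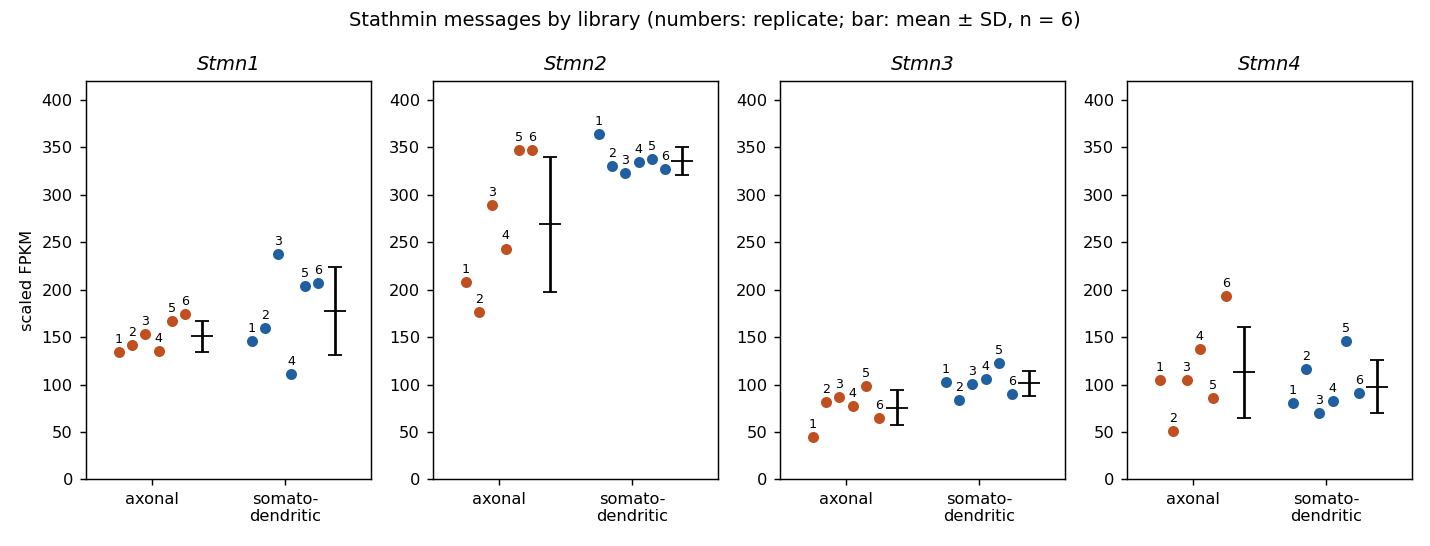
Scaled FPKM of each stathmin (vertical axis, linear) in the 6 axonal (orange) and 6 somatodendritic libraries (blue), numbered by replicate, with the mean and SD beside each group. Stmn2 lies highest in both compartments and its 6 somatodendritic values span 322.9 to 364.4, while the compartments overlap for all 4 genes.

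Stmn2, whose product regulates microtubule turnover in growth cones, was listed at a lowest, median and highest scaled FPKM of 176.2, 266.4 and 347.7 in axonal libraries. The same values were 322.9, 332.4 and 364.4 in somatodendritic libraries. Axonal replicates 1 to 4 lay below every somatodendritic library, and axonal replicates 5 and 6 lay inside the somatodendritic range. The mean was 268.8 ± 71.6 in axonal libraries and 336.2 ± 14.8 in somatodendritic ones (SD, 6 libraries a side), a log2 fold change of -0.37 ± 0.18 (SE, limma on log2(scaled FPKM + 1), Benjamini-Hochberg adjusted p = 0.58). The 95% interval of this difference ran from -0.74 to 0.01. The difference was larger in replicates 1 and 2 than in the others, which was not tested. Within replicates 1 and 2, Stmn2 stood at 176.2 and 208.6 in axonal against 330.3 and 364.4 in somatodendritic libraries, a difference of -0.97 on the log2 scale (limma adjusted p = 0.78). Within replicates 3 to 6 it averaged 306.9 ± 50.5 in axonal libraries and 330.6 ± 6.80 in somatodendritic ones (SD, 4 libraries a side), a difference of -0.11 on the log2 scale (limma adjusted p = 0.91).

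The somatodendritic values of Stmn2 lay close together. Their SD on the log2 scale was 0.06, smaller than that of each of the 51 other genes whose mean lay within 0.5 of it (median SD 0.27). In axonal libraries the SD of Stmn2 was 0.40, beside a median of 0.48 over 76 genes of like level. The deposited confidence bounds of Stmn2, whose level is not stated in the tables, lay 9.70 to 22.6% either side of its FPKM in axonal libraries. They lay up to 33.2% either side in somatodendritic libraries, widest in replicate 4. These were the narrowest bounds of the family by range. In every somatodendritic library they were nonetheless wider than the spread of the scaled somatodendritic values of Stmn2. How even Stmn2 is in that compartment therefore could not be resolved.

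Stmn1, the cytosolic member, was listed at a lowest, median and highest scaled FPKM of 134.1, 147.6 and 173.9 in axonal libraries and of 111.0, 182.0 and 237.5 in somatodendritic libraries. All axonal values lay inside the somatodendritic range. The mean was 150.9 ± 16.6 in axonal libraries and 177.7 ± 46.7 in somatodendritic ones (SD, 6 libraries a side), a log2 fold change of -0.20 ± 0.20 (SE, limma adjusted p = 0.77, 95% interval -0.61 to 0.22). The lowest somatodendritic value was that of replicate 4, where the deposited bounds of Stmn1 ran from 0 to 263.5 FPKM. Without that library the log2 fold change was -0.36 (limma adjusted p = 0.60). Within replicates 1 and 2 the log2 fold change of Stmn1 was -0.27 and within replicates 3 to 6 it was -0.21 (limma adjusted p = 0.83 and 0.86).

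In contrast to Stmn2, the listed values of Stmn1 were the more even in axonal libraries. Its axonal SD on the log2 scale was 0.16, beside a median of 0.46 over 163 genes of like level, of which 1.84% had a smaller SD. Its somatodendritic SD of 0.40 was close to the median of 0.35 over 147 genes, and includes replicate 4 with its wide bounds. The deposited bounds of Stmn1 lay 17.4 to 43.6% either side of its FPKM in axonal libraries. These are wider than the spread of its scaled axonal values, so how even Stmn1 is in axons could not be resolved. Because Stmn1 is also a message of proliferating cells, markers of dividing cells were read beside it. All 9 of these markers were tested and none passed the limma test (1 at an unadjusted p below 0.05, beside 8.9% of all tested genes). Of these 9, 6 had a log2 fold change above 0 and 3 below, where 39.5% of all tested genes lay below. Each marker was detected in 4 to 12 of the 12 libraries. Their summed level ran from 46.7 to 227.8 scaled FPKM in the axonal set, against 39.5 to 102.8 in the somatodendritic set. The highest sum was that of axonal replicate 3, in which Stmn1 stood at 153.5 scaled FPKM, near its axonal median. Markers of astrocytes and radial glia summed to 176.0 to 807.9 scaled FPKM in the axonal set, against 309.1 to 368.6 in the somatodendritic set. The part of either marker group in the level of Stmn1 was not tested.

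Stmn3, an anchored member named SCLIP for its likeness to SCG10, was the lowest of the family by mean in axonal libraries. It was listed at a lowest, median and highest scaled FPKM of 44.8, 79.5 and 98.4 in axonal libraries and of 84.0, 101.6 and 123.2 in somatodendritic libraries. Axonal replicates 1, 2, 4 and 6 lay below every somatodendritic library, and replicates 3 and 5 did not. The mean was 75.7 ± 18.8 in axonal libraries and 101.1 ± 13.6 in somatodendritic ones (SD, 6 libraries a side), a log2 fold change of -0.45 ± 0.21 (SE, limma adjusted p = 0.57, 95% interval -0.90 to 0.01). Within replicates 1 and 2 the log2 fold change of Stmn3 was -0.73 and within replicates 3 to 6 it was -0.36 (limma adjusted p = 0.78 in both). In FPKM as deposited the compartments did not overlap for Stmn3, at 51.5 to 80.7 in the axonal set, against 89.5 to 136.0 in the somatodendritic set. That held for 0.532% of the 13914 tested genes, and for 0.316% with the axonal values lower. After scaling, 0 of 4 stathmins and 0.712% of tested genes had compartments that did not overlap. FPKM is a share of the library, and the mitochondrial part of it reached 53.5% in axonal replicate 2 and at most 12.0% in somatodendritic libraries. The part of this in the unscaled difference was not tested. The limma test on these unscaled values gave Stmn3 a log2 fold change of -0.70 (adjusted p = 0.55).

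Stmn3 is the one member with a single annotated transcript (1136 exonic bases), so that its FPKM could be turned back into reads. The values corresponded to 55, 22, 20, 24, 24 and 24 reads in axonal replicates 1 to 6 and to 56, 34, 30, 7, 37 and 26 reads in somatodendritic replicates 1 to 6, each within 0.20 of a whole number. The somatodendritic value of replicate 4 thus rested on 7 reads, and its deposited bounds ran from 27.4 to 197.4 FPKM. For the other members several transcripts are annotated, 5 for Stmn1, 4 for Stmn2 and 9 for Stmn4, and no read number was derived.

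Stmn4, the anchored member also known as RB3, varied most between axonal libraries. It was listed at a lowest, median and highest scaled FPKM of 51.0, 104.5 and 192.9 in axonal libraries and of 69.9, 87.2 and 145.5 in somatodendritic libraries. Axonal replicate 2 lay below and axonal replicate 6 above every somatodendritic library, and the other axonal libraries lay inside their range. The mean was 112.7 ± 48.4 in axonal libraries and 97.8 ± 28.1 in somatodendritic ones (SD, 6 libraries a side), a log2 fold change of 0.13 ± 0.29 (SE, limma adjusted p = 0.90, 95% interval -0.48 to 0.74). The sign of this difference depended on the libraries and the scaling, and no direction is given. Replicates 1 and 2 gave -0.52 and replicates 3 to 6 gave 0.41 (limma adjusted p = 0.78 and 0.82). The value was -0.05 without axonal replicate 6 and -0.12 with FPKM as deposited (limma adjusted p = 0.97 and 0.96). Stmn4 also had the widest deposited bounds, 26.4 to 107.1% either side of its FPKM in the axonal set, against 48.2 to 172.6% in the somatodendritic set. They reached 0 in axonal replicate 2 and in somatodendritic replicate 4.

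**Figure D2:**
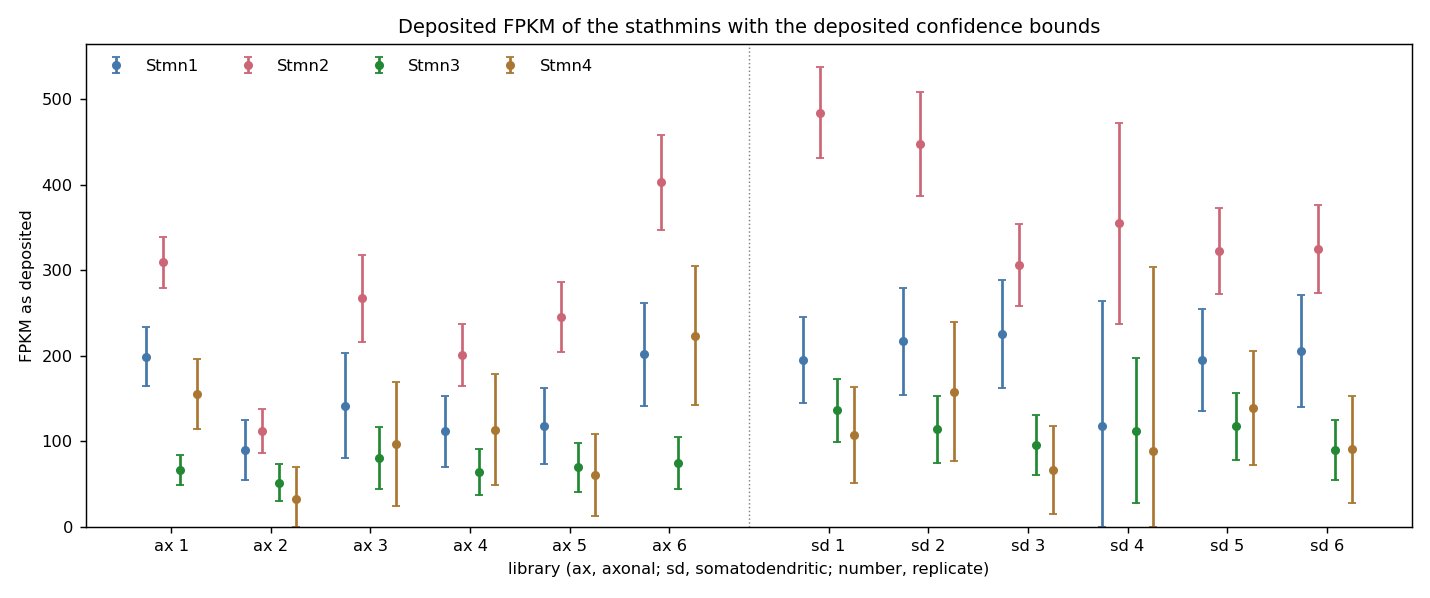
FPKM as deposited (vertical axis, linear) of the 4 stathmins in each library, axonal on the left and somatodendritic on the right, with the confidence bounds given in the tables as bars. Stmn2 lies above the other members in every library, and the bounds of Stmn1 and Stmn4 reach 0 in somatodendritic replicate 4.

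Within libraries the order of the members was largely the same in both compartments. Stmn2 was the highest in 12 of 12 libraries, and Stmn1 exceeded Stmn3 in 12 of 12. Stmn1 exceeded Stmn4 in 4 of 6 axonal and 6 of 6 somatodendritic libraries, the exceptions being axonal replicates 4 and 6. Stmn3 exceeded Stmn4 in 2 of 6 axonal and 3 of 6 somatodendritic libraries, so that these neighbours in the order could not be ranked. The deposited bounds of Stmn2 lay wholly above those of Stmn3 in 12 libraries, above those of Stmn4 in 10 and above those of Stmn1 in 9. The bounds of Stmn1 lay wholly above those of Stmn3 in 5 libraries and above those of Stmn4 in 1. Those of Stmn4 lay wholly above those of Stmn3 in 2 libraries, both axonal.

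Each member's share of the summed FPKM of the family does not depend on library scaling. Stmn2 held 43.7 ± 3.78% in axonal and 47.4 ± 4.49% in somatodendritic libraries, and Stmn1 held 25.3 ± 3.47% in axonal libraries and 24.7 ± 5.41% in somatodendritic ones (SD, 6 libraries a side). Stmn4 held 18.2 ± 5.70% in axonal and 13.6 ± 3.19% in somatodendritic libraries, and Stmn3 held 12.7 ± 3.58% in axonal libraries and 14.2 ± 1.70% in somatodendritic ones (SD, 6 libraries a side). The compartments overlapped for each of these shares. The log2 ratio of Stmn1 over Stmn2 within a library was -0.79 ± 0.28 in axonal and -0.96 ± 0.44 in somatodendritic libraries. Stmn2 over Stmn3 was 1.83 ± 0.46 in axonal and 1.74 ± 0.18 in somatodendritic libraries, and Stmn2 over Stmn4 was 1.32 ± 0.51 in axonal libraries and 1.83 ± 0.39 in somatodendritic ones (SD, 6 libraries a side). Of the 6 ratios between members, none separated the compartments. The ratio that differed most in its mean was Stmn3 over Stmn4, at -0.50 ± 0.86 in axonal and 0.08 ± 0.39 in somatodendritic libraries.

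**Figure D3:**
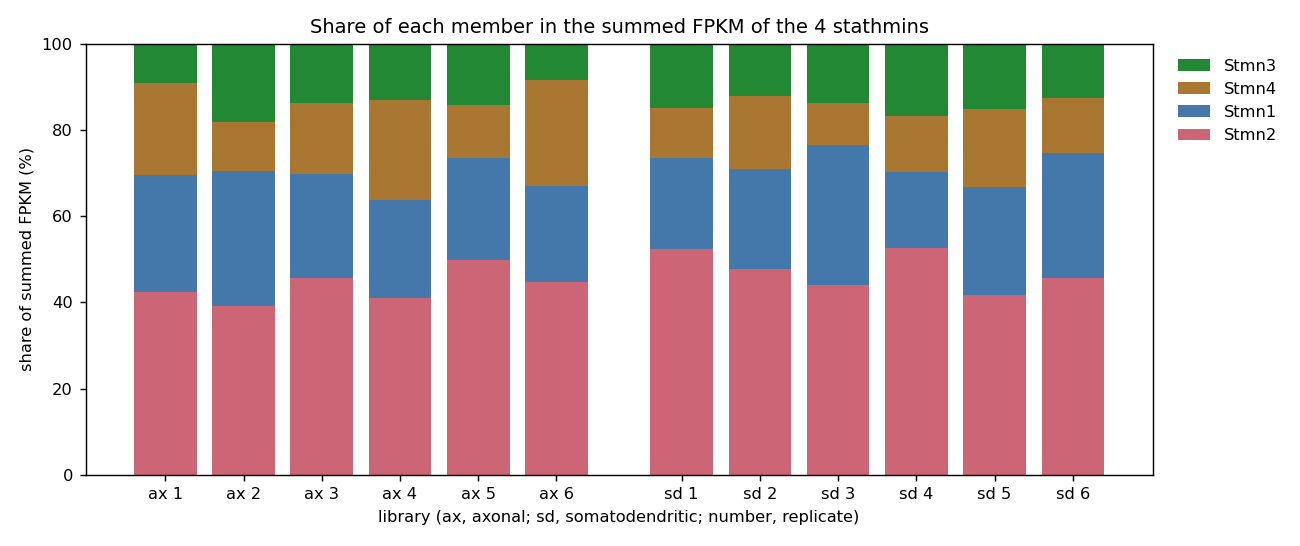
Share of each stathmin in the summed FPKM of the 4 genes (vertical axis, percent) in each axonal (ax) and somatodendritic (sd) library. Stmn2 holds 39.1 to 49.8% in the axonal set, against 41.7 to 52.7% in the somatodendritic set, and the other members keep overlapping shares.

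None of the 4 stathmins passed the limma test between compartments. Of 13914 genes tested, 1 passed (0.00719%), the DNA repair gene Fanci, higher in axonal libraries, and 0 were lower in axonal libraries. Leaving out axonal replicate 6 raised this count to 11, leaving out replicate 1 of that compartment to 3, and leaving out its replicates 2 or 4 to 2 each. At an unadjusted p below 0.05, limma passed 0 of 4 stathmins and 8.9% of tested genes, and 2.61% of tested genes passed with lower axonal values. An exact two-sided permutation test over all arrangements of the 12 libraries called 0 genes after adjustment and 8.75% at an unadjusted p below 0.05, among them Stmn3 (p = 0.0173, adjusted p = 0.42). Its unadjusted p was 0.0541 for Stmn2, 0.281 for Stmn1 and 0.677 for Stmn4. The smallest p that the permutation test can give is 0.00216. That is too large for the 99 tested genes without overlap between compartments to pass adjustment, so the count of 0 from this test says little.

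Stmn1, Stmn2 and Stmn3 had log2 fold changes below 0 and Stmn4 above 0, where 39.5% of all tested genes lay below 0. The median of the members was -0.28 and that of all tested genes 0.18. Without somatodendritic replicate 4, the shallowest library, the median of all tested genes was 0.04. Relative to that value Stmn1, Stmn2 and Stmn3 stood at -0.40, -0.44 and -0.51, and Stmn4 at 0.02. How far the 39.5% rests on that library was not tested. Abundant genes lay lower than the rest in axonal libraries. Of the 380 genes at or above the level of the lowest member, 54.5% lay below 0, with a median of -0.08. At an unadjusted limma p below 0.05 were 94 of these 380 genes (24.7%), and 0 of the 4 stathmins. Of these abundant genes 14.2% lay below Stmn3, 21.8% below Stmn2, 37.9% below Stmn1 and 63.2% below Stmn4. Other scalings also moved the median of all genes. The median over the tested genes shifted by -0.18 without any scaling, with a common sum over all genes by -0.25, with quantile normalization by -0.22 and with a common sum over nuclear protein-coding genes by -0.13. Relative to that median, Stmn2 stood at -0.54 after median-of-ratios scaling and between -0.65 and -0.39 after these others. Stmn3 stood at -0.62 and between -0.73 and -0.45, and Stmn1 at -0.38 and between -0.48 and -0.15. Stmn4 stood at -0.05, and turned from -0.15 with a common sum to 0.15 with quantile normalization.

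Markers of neurons and of other cells were read beside these differences. Of 8 pan-neuronal markers, 7 lay below 0 and 1 above, with a median log2 fold change of -0.35, beside -0.28 for the 4 stathmins. None passed the limma test (1 at an unadjusted p below 0.05). Among all tested genes 39.5% lay below 0 and 8.9% had such a p, and among the 380 abundant genes 54.5% and 24.7%. Tubb3, a neuronal beta-tubulin that is also in the tubulin list, averaged 400.0 ± 112.6 scaled FPKM on the axonal side, against 581.1 ± 89.7 on the somatodendritic side (SD over 6 libraries each; limma adjusted p = 0.39).

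Several markers of other cell types had higher axonal means, and none passed the limma test. Fn1, the fibronectin gene of the fibroblast list, averaged 57.6 ± 34.9 scaled FPKM on the axonal side, against 8.22 ± 2.77 on the somatodendritic side (SD over 6 libraries each; limma adjusted p = 0.21). It made up most of the fibroblast sum of 9.18 to 112.5 in axonal libraries, against 6.94 to 12.3 in somatodendritic ones, while the defining marker Dcn was at 0 in all 12. Vim and Nes, intermediate filament genes of radial glia, averaged 251.9 ± 152.7 and 9.41 ± 3.59 on the axonal side, against 80.6 ± 35.7 and 2.70 ± 1.05 on the somatodendritic side (SD over 6 libraries each; limma adjusted p = 0.38 for both). The other 8 glial markers did not reach an unadjusted p below 0.05, and 6 of the 10 in all lay below 0, beside 39.5% of all tested genes. Hbb-y, an embryonic globin gene, had 1.40 to 23.1 scaled FPKM in axonal libraries and was at 0 in the 6 somatodendritic ones (adjusted p = 0.069, limma). The erythroid sum was 5.64 to 72.8 in axonal libraries, against 0 to 7.80 in somatodendritic ones. The part of these cells in the stathmin differences was not tested.

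**Figure D4:**
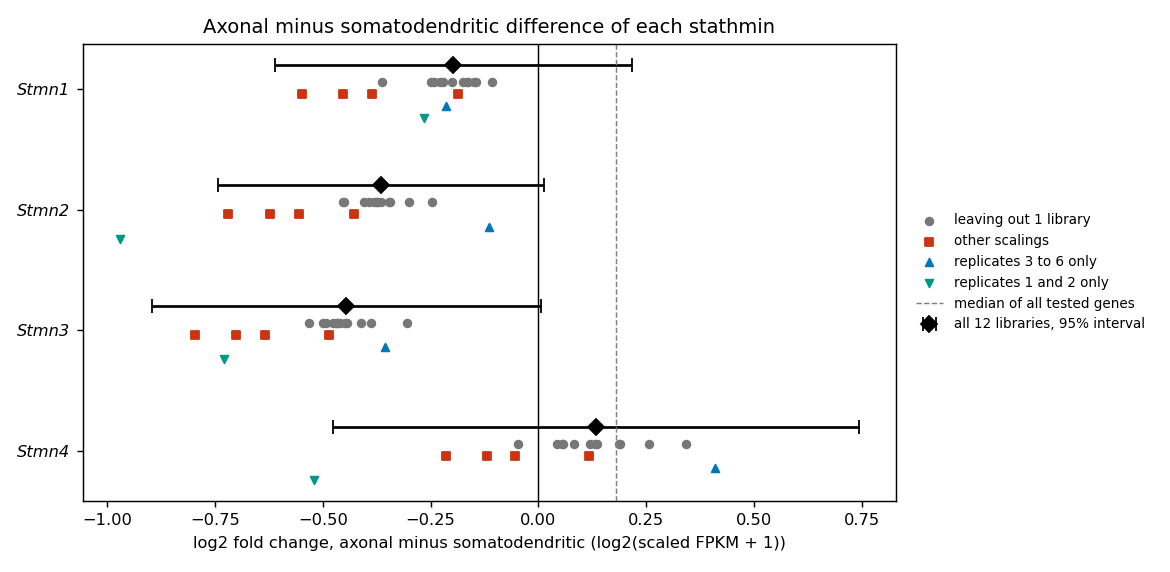
Axonal minus somatodendritic log2 fold change of each stathmin (horizontal axis) with its 95% interval from all 12 libraries, and the value after leaving out 1 library, after other scalings and within each set of replicates. The intervals of all 4 genes include 0, Stmn2 moves from -0.97 in replicates 1 and 2 to -0.11 in replicates 3 to 6, and Stmn4 lies on both sides of 0.

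Tubulin genes encode the dimers that stathmins bind. Of 12 listed tubulins 11 were tested and 0 passed the limma test in either direction (3 at an unadjusted p below 0.05). Of these 11, 10 lay below 0, and the median log2 fold change was -0.35. Over all tested genes 39.5% lay below 0 and 8.9% had an unadjusted p below 0.05, and over the 380 abundant genes these shares were 54.5% and 24.7%. Tubb5, a beta-tubulin gene, averaged 530.2 ± 101.2 scaled FPKM on the axonal side and 800.0 ± 163.9 on the somatodendritic side (SD over 6 libraries each; limma adjusted p = 0.37). Tubb6, a beta-tubulin mostly expressed outside neurons, was the one above 0, at 12.4 ± 6.0 on the axonal side and 3.49 ± 3.90 on the somatodendritic side (SD over 6 libraries each; limma adjusted p = 0.39). The summed tubulin level ran from 2015.5 to 4178.7 scaled FPKM in the axonal set, against 3439.6 to 3869.7 in the somatodendritic set. Axonal replicates 1, 2, 3, 4 and 6 lay below every somatodendritic sum, and axonal replicate 5 alone lay above them.

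The kinases that phosphorylate stathmins, or act above those kinases, did not pass the test either. Of 22 listed 20 were tested and 0 passed the limma test (1 at an unadjusted p below 0.05), with 14 below and 6 above 0. The median log2 fold change was -0.19. Among all tested genes 8.9% had such a p and 39.5% lay below 0. Camk2b, a subunit of a calcium-activated kinase, averaged 38.7 ± 6.58 scaled FPKM on the axonal side and 60.7 ± 15.7 on the somatodendritic side (SD over 6 libraries each; limma adjusted p = 0.48). Cdk5, the neuronal cyclin-dependent kinase, averaged 14.9 ± 3.06 on the axonal side and 8.64 ± 5.5 on the somatodendritic side (SD over 6 libraries each; limma adjusted p = 0.60). The JNK genes Mapk8 and Mapk10 averaged 40.7 ± 13.1 and 76.3 ± 34.2 in axonal against 37.4 ± 12.2 and 66.6 ± 34.9 in somatodendritic libraries, with limma adjusted p of 0.85 and 0.91 for Mapk10 and Mapk8. Mapk9 was listed between 9.86 and 44.6 in axonal libraries, against 29.5 to 76.8 on the somatodendritic side (limma adjusted p = 0.62).

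Other microtubule destabilisers and severing enzymes were far less abundant than the stathmins. Of 15 listed 12 were tested and 0 passed the limma test (2 at an unadjusted p below 0.05), with 5 below and 7 above 0. The median log2 fold change was 0.38. Among all tested genes 8.9% had such a p and 39.5% lay below 0. Their summed level ran from 74.9 to 128.0 scaled FPKM in the axonal set, against 76.9 to 105.6 in the somatodendritic set. The sum of the 4 stathmins was 450.1 to 778.9 on the axonal side, against 634.9 to 810.6 on the somatodendritic side. Kif18a, a mitotic kinesin, had 1.24 to 4.89 scaled FPKM in axonal libraries against 0 to 0.32 in the somatodendritic ones (adjusted p = 0.32, limma). Kif2c, a mitotic depolymerising kinesin, had 0 to 7.48 scaled FPKM in axonal libraries and was at 0 in the 6 somatodendritic ones (adjusted p = 0.43, limma). At these depths such low values can rest on few reads. Kif2a, its relative expressed in neurons, averaged 37.0 ± 18.8 on the axonal side and 45.0 ± 13.8 on the somatodendritic side (SD over 6 libraries each; limma adjusted p = 0.76).

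Of 12 regulators and axonal partners of Stmn2, all were tested and 0 passed the limma test (1 at an unadjusted p below 0.05). Of these, 9 lay below and 3 above 0, with a median log2 fold change of -0.14. Among all tested genes 8.9% had such a p and 39.5% lay below 0. Gpm6a, which encodes a palmitoylated neuronal membrane glycoprotein, averaged 105.0 ± 12.8 scaled FPKM on the axonal side and 165.1 ± 24.7 on the somatodendritic side (SD over 6 libraries each; limma adjusted p = 0.36). Tardbp, which encodes TDP-43, averaged 15.3 ± 5.12 on the axonal side and 27.8 ± 15.5 on the somatodendritic side (SD over 6 libraries each; limma adjusted p = 0.58). Nmnat2, an axon survival factor that like Stmn2 protein is short-lived, averaged 19.4 ± 6.60 on the axonal side and 16.8 ± 3.77 on the somatodendritic side (SD over 6 libraries each; limma adjusted p = 0.90).

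**Figure D5:**
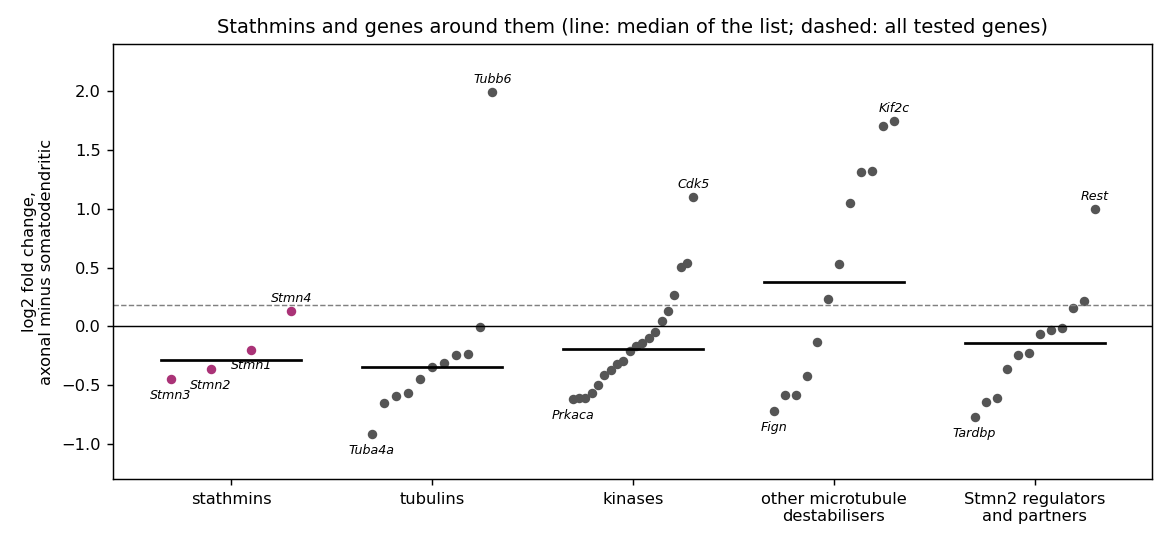
Axonal minus somatodendritic log2 fold change (vertical axis) of the 4 stathmins and of the tested genes of the tubulin, kinase, destabiliser and Stmn2 partner lists, each point 1 gene, with the list median as a bar and the median of all tested genes dashed. The list medians are -0.35 for tubulins, -0.19 for kinases, 0.38 for other destabilisers and -0.14 for regulators and partners of Stmn2, and no gene shown passed the limma test.

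The genes most like each stathmin across the 12 libraries were taken from 2514 protein-coding genes that averaged 20 scaled FPKM or more, by Pearson's r on the log2 scale, as a description. The points share their library, scaling factor and compartment. Each gene was picked as 1 of the 5 highest of 2514 r values over 12 libraries, which by itself gives high values. Whether any r exceeds what such picking gives was not tested. For Stmn1 they were Cpe, which encodes carboxypeptidase E, Rcn2, Tsc22d1, Cct4 and Timm17a, with r of 0.79 to 0.87 (Spearman's rho 0.72 to 0.87). For Stmn2 they were Pkia, which encodes an inhibitor of the cAMP-dependent kinase, Ppp3cb, a calcineurin subunit gene, Pfkm, Rnf14 and the citrate synthase gene Cs, with r of 0.86 to 0.87 (rho 0.42 to 0.70). For Stmn3 they were H3f3b, Nap1l4, Apoe, Ncan and the calmodulin gene Calm2, with r of 0.82 to 0.84 (rho 0.43 to 0.85). For Stmn4 they were the chaperone gene Hspa8, Nars, Fxyd6, Tmem145 and Mtdh, with r of 0.75 to 0.79 (rho 0.67 to 0.77). Without the 2 libraries farthest from the median of the stathmin, r was 0.40 to 0.84, so that part of the likeness rested on these libraries. In the axonal libraries alone, r of Stmn2 with the 5 genes so picked was 0.83 to 0.91. In the somatodendritic libraries, where the listed values of Stmn2 varied little, r was -0.61 for Pfkm, -0.29 for Pkia, -0.09 for Rnf14, -0.07 for Ppp3cb and 0.17 for Cs. Apoe and Stmn3 had an r of 0.90 in axonal libraries and of -0.28 in somatodendritic ones. Between members the highest r was 0.56, for Stmn2 and Stmn3, and 8.75% of the 2514 genes had a higher r with Stmn2. The lowest was -0.23, for Stmn3 and Stmn4.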

How the data were processed

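Tables of 12 libraries, grouped and numbered by the sample titles, were used. The authors deposited FPKM and its lower and upper confidence bounds per gene, in the Cufflinks gene layout per the file headers. The submitters' processing notes name build GRCm38 and the tools FastQC 0.10.1 and Cufflinks 2.2.1. Aligner settings, annotation release and strandedness were not found there, in the labels or in the headers.

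Each library's FPKM was divided by its median-of-ratios factor, taken over 5607 genes above 0 throughout. The 13914 genes averaging 1 FPKM or more entered limma 3.58.1 (R 4.3.3; trend, robust, two-sided) on a log2 scale after adding a pseudocount of 1, with Benjamini-Hochberg adjustment over all of them at 0.05. Fold changes on this scale understate the change of low genes. The exact permutation test used Python 3.11.15, with numpy 2.4.6, scipy 1.17.1 and pandas 2.3.3, and figures matplotlib 3.10.9. The fit was tested on simulated data.

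Depth came from 1784 protein-coding genes with 1 GENCODE M21 transcript of over 1000 exonic bases and matching ends. Of values up to 5 reads, 70.3 to 78.8% lay within 0.05 of a whole number. One read is worth a different FPKM in each gene, and no count model was fitted. Sequences were read from GENCODE M21 and aligned with Biopython 1.88. Deposited starts are given 1-based.

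The named genes were the members, the 5 genes most like each, and the 2 of smallest p in each of the 4 lists of tubulins, kinases, destabilisers and Stmn2 partners. Smn1 (the target) and the motoneuron markers are named as checks of the labels. The rule did not cover the other genes named (Mapk8, Mapk9, Mapk10, Kif2a, Nmnat2, Fanci, Stmnd1, and the markers Tubb3, Fn1, Dcn, Vim, Nes and Hbb-y), which were chosen after their values were seen. The members and lists were chosen with earlier results of these data known.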

Additional observations from a re-analysis of the deposited data

Results flagged for a closer look

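Of 36 sets of 6 values checked, 2 held a library apart from the others of its compartment, and chance flags about 1 set in 20. In axonal libraries, Stmn3 ranked 869 among nuclear protein-coding genes in replicate 1, with the next lowest rank, 524, in replicate 6. In somatodendritic libraries, Stmn2 stood at 364.4 scaled FPKM in replicate 1, with the next highest value, 337.7, in replicate 5.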

How the results depend on the processing

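Under 28 alternatives, no stathmin passed the test. Stmn1, Stmn2 and Stmn3 had a log2 fold change below 0 in all 28, from -0.55 to -0.11, from -0.97 to -0.11 and from -0.80 to -0.30 (lowest adjusted p 0.60, 0.46 and 0.42). Some of the 28 could not change a fold change by design. These were the replicate block, the term for the replicate sets, the other filters and the permutation test. Stmn4 changed sign in 5, at -0.12 with FPKM as deposited, -0.21 with a common sum over all genes, -0.054 with a common sum over nuclear protein-coding genes and -0.52 within replicates 1 and 2. Leaving out 1 library at a time gave Stmn4 -0.047 (without axonal replicate 6) to 0.34. The cause was not tested. The count of genes called, 1, became 1 to 11 when 1 library was left out. It was 3 with a pseudocount of 0.1, 5 with array weights, 7 without axonal replicates 1 and 2, and 5 without these and somatodendritic replicate 4. It was 6 when the fit held a term for the 2 sets of replicates, 7 within replicates 3 to 6 and 0 within replicates 1 and 2. With the exact permutation test the count was 0, and at its smallest p of 0.00216 a few genes could not pass adjustment. With a replicate block the count was 5 (3 higher, 2 lower), with all stathmins uncalled. Each number has 1 library per compartment, so the block could not move the log2 fold changes. For Stmn1, Stmn2, Stmn3 and Stmn4 these were -0.20, -0.37, -0.45 and 0.13, as in the main fit. Same-numbered libraries deviated together with r of 0.24 for number 1 and of -0.00045 to 0.07 for the others. Axonal libraries 1, 3 and 5 and somatodendritic libraries 1 and 5 correlated best with their own number, and the other libraries did not. Many genes rest on few reads, so these values do not settle whether the numbers pair the samples. The main fit therefore held no pairing. The axonal minus somatodendritic share of Stmn2 in the family ran from -4.89 to -0.82 percentage points. Precision was lowest in somatodendritic replicate 4, the shallowest library, where the deposited bounds of each member were, relative to its FPKM, the widest of that compartment.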
